A study of Mus musculus with 4 samples.

Results

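The contractile genes of smooth muscle described here are Myh11, Acta2, Actg2, Cnn1, Lmod1, Mylk, Myocd, Tagln, Des and Tnnt2, taken by symbol as 10 of the 31053 genes counted. They were measured in oviduct and uterus of wild-type, untreated CD1 (ICR) mice at postnatal day 3, with droplet-based single-cell RNA sequencing that counts the 3' ends of transcripts by unique molecular identifiers (UMIs). Each organ has 2 libraries, and every library is a pool of animals: neonates were grouped into pools of 3 and of 4, and a pool gave both its oviducts and its uteri. No other genotype, treatment or age was sampled, so the comparison is between the organs and between the cell classes within them.

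Smooth muscle shortens when myosin filaments pull on actin filaments, and this is switched on when calcium and calmodulin activate the kinase that phosphorylates the myosin light chain. The genes of this apparatus share a control layer in which serum response factor binds CArG boxes in their promoters together with the coactivator myocardin. The muscle coat of both organs forms from the mesenchyme around the epithelial tube, largely after birth, and in adults it moves gametes, embryos and, at term, the young.

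Of the 10 genes, Myocd encodes myocardin, and the other 9 encode parts of the apparatus or of the cytoskeleton that holds it. Coordinates below are those of GENCODE M21 on GRCm38, the assembly also called mm10, and cover the whole gene with its exons and introns. Acta2 (chr19:34241090-34255590, minus strand) and Actg2 (chr6:83512905-83536265, minus strand) encode the alpha and gamma actins of smooth muscle. Myh11 (chr16:14194535-14291372, minus strand) encodes the smooth muscle myosin heavy chain, and Mylk (chr16:34745210-35002420, plus strand) the light chain kinase that activates it. Cnn1 (chr9:22099216-22109630, plus strand) and Tagln (chr9:45929619-45936058, minus strand) encode the actin-binding proteins calponin and transgelin. Lmod1 (chr1:135324807-135368065, plus strand) encodes leiomodin, which starts new actin filaments. Des (chr1:75360329-75368579, plus strand) encodes the intermediate filament protein desmin, and Tnnt2 (chr1:135836354-135852260, plus strand) encodes troponin T of the heart, a thin filament protein of striated muscle. Myocd lies at chr11:65176561-65269989 on the minus strand.

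RefSeq held promoter windows of GRCm38.p6 for 6 of the 10 genes, and 5 stretches are shown because they carry, or in the case of Des lack, the motifs by which these genes are usually grouped. Each full window is the 250 bases before an annotated start, written 5′ to 3′ on the strand of the gene. GENCODE exons cover 217 of the 250 bases in the Acta2 window, whose printed site lies inside the annotated gene, 37 in Cnn1, 29 in Mylk, 6 in Lmod1 and all 250 of a second Tnnt2 window that is not shown. Capitals mark CATTCC or its reverse complement GGAATG, the core of the M-CAT element bound by TEAD factors, and in Acta2 a CArG box with 1 inner C or G. The Tnnt2 window is chr1:135836084-135836333, that of Lmod1 chr1:135324563-135324812, that of Mylk chr16:34784700-34784949, which is one of the starts inside the gene, and that of Des chr1:75360042-75360291. The Acta2 site of 30 bases is chr19:34255438-34255467 on the minus strand.
Tnnt2: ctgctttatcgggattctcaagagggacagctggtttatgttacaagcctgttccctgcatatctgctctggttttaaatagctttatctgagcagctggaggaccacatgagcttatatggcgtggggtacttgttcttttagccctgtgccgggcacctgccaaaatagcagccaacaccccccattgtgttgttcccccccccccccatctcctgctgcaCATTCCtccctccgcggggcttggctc
Lmod1: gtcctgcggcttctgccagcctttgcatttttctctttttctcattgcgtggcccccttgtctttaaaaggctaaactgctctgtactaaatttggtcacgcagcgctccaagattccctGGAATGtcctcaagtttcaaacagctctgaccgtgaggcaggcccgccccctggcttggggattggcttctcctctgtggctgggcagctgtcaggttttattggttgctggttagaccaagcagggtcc
Mylk: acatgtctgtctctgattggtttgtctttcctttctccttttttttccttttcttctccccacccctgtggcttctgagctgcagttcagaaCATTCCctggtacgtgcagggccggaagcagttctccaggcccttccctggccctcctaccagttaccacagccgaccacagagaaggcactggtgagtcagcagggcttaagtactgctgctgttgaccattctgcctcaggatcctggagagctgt
Des: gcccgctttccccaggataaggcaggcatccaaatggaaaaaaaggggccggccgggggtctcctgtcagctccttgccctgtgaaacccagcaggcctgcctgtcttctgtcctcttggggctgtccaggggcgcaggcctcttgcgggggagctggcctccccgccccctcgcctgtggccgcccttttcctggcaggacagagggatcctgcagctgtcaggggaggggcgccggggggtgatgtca
Acta2: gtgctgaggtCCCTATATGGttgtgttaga

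The motif search covered both strands of all 32851 RefSeq windows of the same length. CATTCC occurred in 4 of the 7 windows of these genes, 27 to 22 bases before the start in Tnnt2, 130 to 125 in Lmod1, 158 to 153 in Mylk and 146 to 141 in Acta2, against 12.6% of all windows. The exact CArG box was in 0 of the 7 windows and in 1.47% of all. With 1 inner C or G allowed it was found in Acta2 only, at 84 to 75 and at 34 to 25 bases before the start, against 7.24% of all windows. TATAAA was in none of the 7 and in 12.4% of all windows. These counts describe letters in a window and not binding.

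The libraries held 5716 to 7808 called cells and 61117726 to 114419939 UMIs, with a median of 9608 to 11890.5 UMIs per cell. No 2 libraries shared more than 15 barcodes. Filters kept 6488 and 5524 of the 7808 and 6773 oviduct cells. In the uterus they kept 3872 and 4280 of 5716 and 6322, a smaller share, and the part of this in the organ comparisons was not tested. Of the 20164 cells kept, the 18673 with at least 2000 UMIs were sorted into classes by marker genes, none of which is among the 10. Cells were taken as smooth muscle-like, called smooth muscle from here on, when 15 other muscle genes together reached 30 UMIs per 10000. That gave 939 and 846 cells from the oviduct and 603 and 590 from the uterus, replicate 1 before replicate 2 here and in every list of 4 values below. Cells gated as pericytes, the contractile cells of small vessels, numbered 176, 136, 164 and 187 and are called pericytes below. No gate set them apart from the smooth muscle of vessels. Stroma held 9766 cells in all, and 2577 cells between the thresholds for stroma (under 20) and muscle were kept apart as intermediate. The smooth muscle class is a range of a score and not a discrete type: 1827 cells lay within 5 of its threshold, and 4 genes, Tpm1, Tpm2, Myl9 and Csrp1, supplied 85.5% of the UMIs that made the score.

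Markers of other classes were checked in the smooth muscle cells. The median cell had 40.4, 39.8, 39.2 and 36.3 UMIs per 10000 of the 10 stroma markers together, about as many as of the gate genes (44.7, 42.8, 39.4 and 38.8), so stromal transcripts were present throughout the class. For the 10 pericyte markers the medians were 0.93, 1.11, 0.90 and 0.78, for mesothelial markers 0.98 to 1.68 and for epithelial markers 0 to 0.83, and they were 0 for endothelial, blood and nerve markers. The 9 skeletal and cardiac muscle genes checked summed to 16.7, 16.1, 10.4 and 11.8 CPM (counts per 1000000 UMIs of the class). Most of that sum was the fast skeletal troponins Tnni2, at 5.30 to 7.89 CPM, and Tnnt3, at 2.72 to 7.55, whereas the skeletal actin Acta1 was at 0.29 to 1.10 CPM and Myod1 at 0 to 0.34. The ovary markers Fshr, Amh, Ddx4 and Dazl were at most 0.23 CPM, while Foxl2 stood at 132, 150, 20.8 and 23.4 CPM.

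Levels below are CPM of the summed cells of a class in a library. Smooth muscle held the highest mean over the 4 libraries for 9 of the 10 genes, and Des was the exception. Acta2 stood at 5428 ± 1086 CPM in smooth muscle (SD, n = 4), 2311 ± 44.0 in intermediate cells, 1743 ± 579 in pericytes and 499 ± 56.3 in stroma. The ranges of intermediate cells and pericytes overlapped for Acta2, and those of smooth muscle and of stroma overlapped neither of them. Blood endothelium was the lowest of the 8 classes for Acta2, at 49.1 ± 36.5 CPM. Myh11 separated the classes more steeply, at 375 ± 211 CPM in smooth muscle, 164 ± 70.6 in pericytes, 62.7 ± 23.4 in intermediate cells, 9.43 ± 1.35 in stroma and 1.55 ± 0.560 in epithelium. Its ranges in smooth muscle and pericytes overlapped because the uterine muscle was as low as the oviduct pericytes. Cnn1, Lmod1, Mylk and Tagln had the order smooth muscle, intermediate, pericytes, each without overlap between smooth muscle and the next class.

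**Figure D1:**
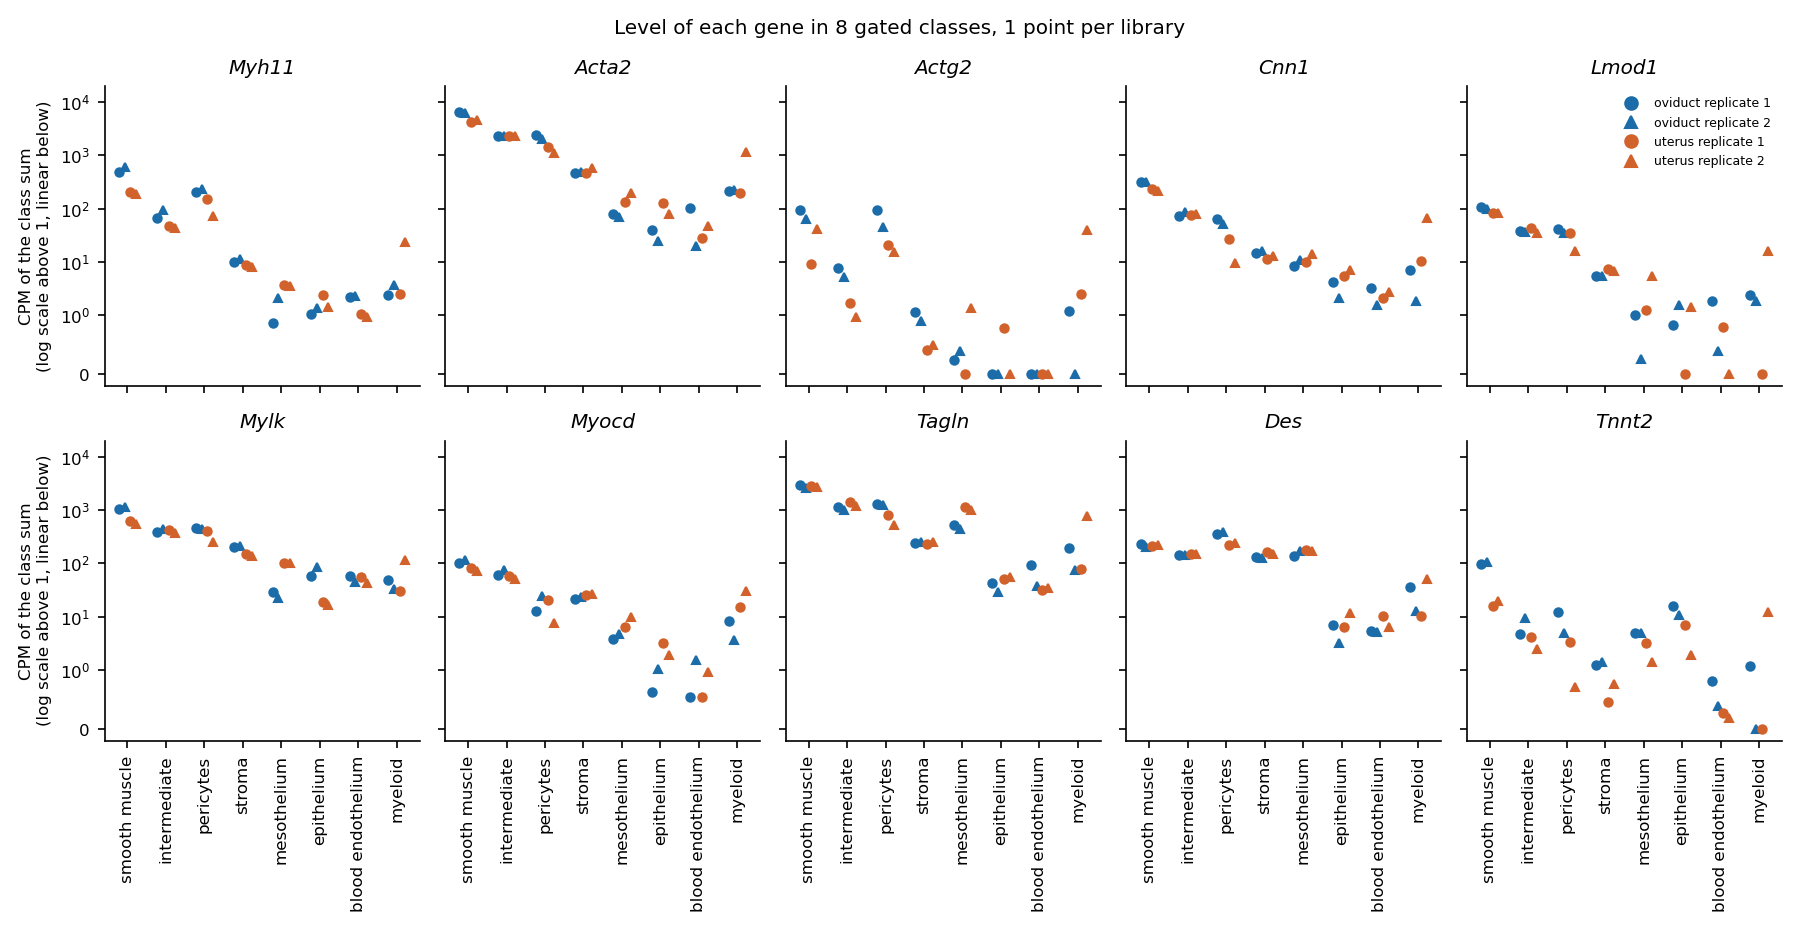
Level of each of the 10 genes in CPM by cell class, with 1 point per library, coloured by organ (log axis above 1, linear below). In 9 panels smooth muscle has the highest mean, and in the Des panel pericytes lie above it.

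Tnnt2 and Myocd had other orders below smooth muscle, and Tagln was also high in mesothelium, the outer lining of the organs. It stood at 781 ± 357 CPM there, while Acta2, the more abundant of the pair in smooth muscle, was at 71.0 to 199 CPM. Tnnt2 was next highest in epithelium, at 8.87 ± 5.90 CPM against 60.2 ± 49.2 in smooth muscle, with SDs that span both organs. The ranges of these classes overlapped, as epithelium reached 15.9 CPM in the oviduct and smooth muscle was as low as 15.7 in the uterus. Within each library smooth muscle was higher, by 2.22 times or more. The epithelial range also overlapped that of pericytes. Myocd was ordered differently from the genes it is known to activate: stroma, at 23.8 ± 2.17 CPM, came before pericytes, at 16.2 ± 7.48, and the ranges of those classes overlapped. The pericyte value of Myocd came mostly from a few cells, as given with the shares of the richest cells. Myeloid cells had high values in uterus replicate 2 alone, such as 1149 CPM of Acta2 against a lowest value of 194. Free RNA, estimated here and below from haemoglobin genes, could supply 21.4% of the UMIs of that class in that library, and its part in these values was not tested.

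Against stroma, all 10 genes were higher in smooth muscle, where 6.19% of the 14147 genes tested were higher, 4.93% were lower and 11.1% differed in either direction (edgeR's quasi-likelihood test with library as a block and Benjamini-Hochberg adjustment). The muscle genes were chosen for this lineage and are expressed together with the genes of the gate, so the direction is a property of how the classes were made. The size of the difference varied widely. Actg2 differed by 6.13 ± 0.24 (log2, SE), Tnnt2 by 5.87 ± 0.29, Myh11 by 5.18 ± 0.29 and Cnn1 by 4.31 ± 0.09. At the other end were Mylk with 2.23 ± 0.10, Myocd with 1.96 ± 0.17 and Des with 0.63 ± 0.08. The kinase, the coactivator and desmin were thus the genes with the smallest gap to stroma. Mylk was at 199, 215, 147 and 138 CPM there, Myocd at 21.0, 23.4, 25.0 and 25.9, and Des at 133, 125, 163 and 148. Actg2, by contrast, was at 0.42 to 1.14 CPM and Tnnt2 at 0.46 to 1.41. The median over the 10 genes was 3.73, against −0.01 over all genes tested. When Leiden clusters, which were drawn on the variable genes of all cells with these 10 not left out, replaced the gate, all 10 remained higher with smaller log2 differences except for Des, such as 2.80 for Actg2, 2.76 for Cnn1, 3.07 for Myh11 and 3.76 for Tnnt2. The clusters named stroma include cluster 18, of whose cells 34.4% were gated as smooth muscle.

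Pericytes share the contractile apparatus, and against them 8 of the 10 genes were higher in smooth muscle, where 18.2% of the 12151 genes tested were higher, 16.5% were lower and 34.7% differed in either direction. Smooth muscle cells had to reach a score of muscle genes, while pericytes had no such condition. The gate genes summed to 4210 to 5092 CPM in smooth muscle and to 2297 to 3694 in pericytes. The direction is therefore in part a property of how the classes were made. Tnnt2 differed by 3.55 ± 0.29 (log2, SE), Cnn1 by 3.08 ± 0.26 and Myocd by 2.67 ± 0.19, so troponin T, calponin and the coactivator had the largest differences. With clusters these were 6.01, 4.40 and 4.35. Acta2 (1.79 ± 0.09), Tagln (1.71 ± 0.19) and Lmod1 (1.70 ± 0.17) lay in the middle, and Myh11 (1.25 ± 0.15) and Mylk (1.18 ± 0.11) differed least. Myh11 ran from 0.62 with a gate at 20 to 2.06 with one at 45. The adjusted p-values of these 8 genes ran from 6.35e-06 for Acta2 to 5.00e-04 for Myh11 in edgeR's quasi-likelihood test. Actg2 did not pass, at 0.35 ± 0.31 with adjusted p = 0.429, and its ratio of smooth muscle to pericytes was 0.98, 1.42, 0.44 and 2.71 in the 4 libraries. With a smooth muscle gate at 45 it was 1.35 and passed (edgeR adjusted p = 0.0199), and it did so in none of the 13 other alternatives. Desmin was the only one with a lower estimate in smooth muscle, at −0.36 ± 0.14 (adjusted p = 0.0768 in the same edgeR test). It was lower there in 4 of 4 libraries, with 358, 390, 221 and 244 CPM in pericytes against 228, 199, 215 and 216 in smooth muscle. The Des difference passed in 4 of 14 alternatives, at −0.49 without uterus replicate 1 (adjusted p = 0.0359), −0.58 with a gate at 20, −0.37 with clusters and −0.31 with no filter on low counts, and with a smooth muscle gate at 45 it was 0.07 (adjusted p = 0.729, all by edgeR).

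Much of the contractile RNA of the pericyte class sat in few cells. The richest pericyte held 395, 507, 256 and 203 Acta2 UMIs, against 439, 388, 306 and 405 in the richest smooth muscle cell. Whether such cells are smooth muscle of vessels was not tested. The 10 cells richest in a gene held 78.2% to 84.8% of the Cnn1 UMIs of the class in each library, 77.4% to 94.0% of those of Actg2 and 55.5% to 66.5% of those of Myh11. For Myocd, with only 21 to 49 UMIs per library, it was 66.7% to 89.8%, and its pericyte level without those cells was 1.77 to 2.50 CPM. For Des the same share was 16.1% to 21.6%, so desmin was spread over the class. Without the UMIs of the 10 richest cells the pericyte levels of Cnn1 were 13.8, 9.85, 4.14 and 1.78 CPM in place of 63.3, 50.8, 27.4 and 9.63. In all such levels, here and below, those cells stay in the UMI total of the class. The values are therefore lower than with the cells wholly removed. The 10 cells are out of 136 to 187 pericytes per library but out of 590 to 939 smooth muscle cells, and the pericyte totals of Cnn1 were only 27 to 179 UMIs, so the shares of the classes are not on one footing. In smooth muscle they were at most 16.9% except for 2 genes. For Actg2 they were 25.0% and 26.1% in the oviduct, 58.0% and 73.6% in the uterus, and for Tnnt2 19.3% and 21.1% against 36.7% and 31.2%. In uterus replicate 2, 292 of the 397 Actg2 UMIs of smooth muscle came from 10 of its 590 cells.

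**Figure D2:**
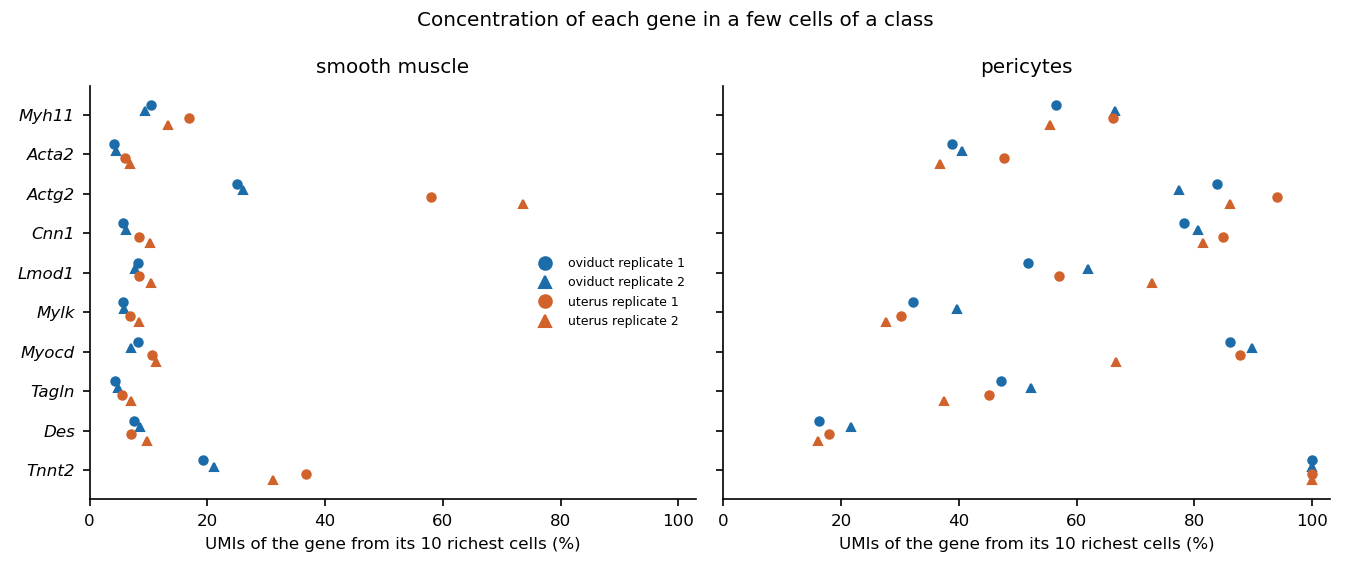
Share of a gene's UMIs held by the 10 cells richest in it, in percent, for smooth muscle (left) and pericytes (right), with 1 point per library. Cnn1 and Actg2 are concentrated in few pericytes, Des is not, and in uterine smooth muscle Actg2 reaches 73.6%.

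The main question of the design is whether oviduct and uterus differ. In smooth muscle 7 of the 10 genes were higher in the oviduct, where 14.2% of the 13176 genes tested were higher in the oviduct, 12.1% were higher in the uterus and 26.3% differed in either direction (edgeR's quasi-likelihood test, Benjamini-Hochberg adjustment). The median difference over the 10 genes was 0.50 (log2), against −0.01 over all genes tested.

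The cells compared lay in different Leiden clusters in each organ. Cluster 7, with a median score of 46.9, held 47.3% and 41.0% of the gated oviduct cells and 0.17% and 0.34% of the uterine ones, and cluster 4, with a median score of 31.8, held 1.38% and 3.31% against 53.9% and 49.5%. A further 24.9% and 24.1% of the uterine cells were in cluster 5, named intermediate, and most of the other oviduct cells were spread over clusters named stroma. Of the 10 leading genes of cluster 7, 6 are genes described here (Tnnt2, Myh11, Cnn1, Acta2, Actg2 and Tagln), and none of those of cluster 4 is. Values with clusters in place of the gate therefore select on the genes described, and the 9 of 10 genes that were higher in the oviduct with them, all but Myocd, are given as a description only.

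Tnnt2 had the largest difference of the 10. It stood at 98.6 and 107 CPM in oviduct muscle and at 15.7 and 19.8 in uterine muscle, so the groups were far apart, with 102.7 ± 5.68 against 17.7 ± 2.93 CPM (SD, n = 2) and a ratio of 5.79. The fitted log2 difference was 2.53 ± 0.13 (edgeR adjusted p = 6.09e-09). Without the 10 richest cells of each library it was 79.6, 84.2, 9.91 and 13.6 CPM, still without overlap. Troponin T of the heart is known from striated muscle, yet its level in oviduct muscle was 80.2 and 75.5 times that in the stroma of the same libraries.

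Myh11, the motor protein, was at 487 and 616 CPM in the oviduct against 208 and 190 in the uterus. The means were 552 ± 91.8 and 199 ± 12.9 CPM, a ratio of 2.77 and a log2 difference of 1.47 ± 0.11 (edgeR adjusted p = 2.06e-07). Its activating kinase Mylk followed with 1045 and 1113 CPM against 608 and 547, a difference of 0.90 ± 0.09 (edgeR adjusted p = 4.54e-06). Both parts of the myosin system were thus higher in the oviduct libraries, without overlap.

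Among the actins, Acta2 was at 6468 and 6244 CPM in the oviduct against 4314 and 4686 in the uterus, a log2 difference of 0.50 ± 0.10 (edgeR adjusted p = 0.00169). Actg2 was at 93.0 and 65.0 CPM against 9.13 and 41.6. Its difference of 1.62 ± 0.39 passed (edgeR adjusted p = 0.00752), but the uterus libraries lay far apart and decided its size: 0.91 without uterus replicate 1 and 3.14 without uterus replicate 2. Leaving out the 10 richest cells of each library put the gamma actin at 69.7, 48.1, 3.83 and 11.0 CPM.

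Calponin and the coactivator differed by as much as Acta2. Cnn1 was at 317.0 and 316.8 CPM against 230.1 and 218, a log2 difference of 0.50 ± 0.09 (edgeR adjusted p = 6.21e-04). Myocd was at 99.8 and 115 CPM against 81.0 and 71.7, a difference of 0.49 ± 0.10 (edgeR adjusted p = 0.00243). Lmod1 did not pass, with 108 and 96.7 CPM against 84.6 and 84.4, a difference of 0.28 ± 0.10 and an edgeR adjusted p of 0.0559, though its groups did not overlap. Lmod1 passed in 4 of 16 alternatives, at 0.37 without oviduct replicate 2 (edgeR adjusted p = 0.0347), 0.29 with no filter on low counts, 0.27 with a gate at 20 and 0.41 with clusters, and it was 0.05 at scores of 30 to 45.

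In the class sums transgelin and desmin did not pass the test and had differences smaller than their errors. Tagln was at 2958 and 2549 CPM in the oviduct against 2760 and 2661 in the uterus, with a log2 difference of 0.02 ± 0.10. Des was at 228 and 199 CPM against 215 and 216, with −0.01 ± 0.10. For both, the organs overlapped and the edgeR adjusted p was 0.901 and 0.945, although Tagln is a classical smooth muscle marker measured with 24498 to 40759 UMIs per library. With clusters in place of the gate, which are marked by Tagln itself, Tagln was 0.49 ± 0.09 and Des 0.32 ± 0.08 (edgeR adjusted p = 6.30e-04 and 0.00896). At scores of 30 to 45 only, Des was −0.26 and did not pass. In each band of the score from 30 upwards Des was higher in the uterus, as given below.

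**Figure D3:**
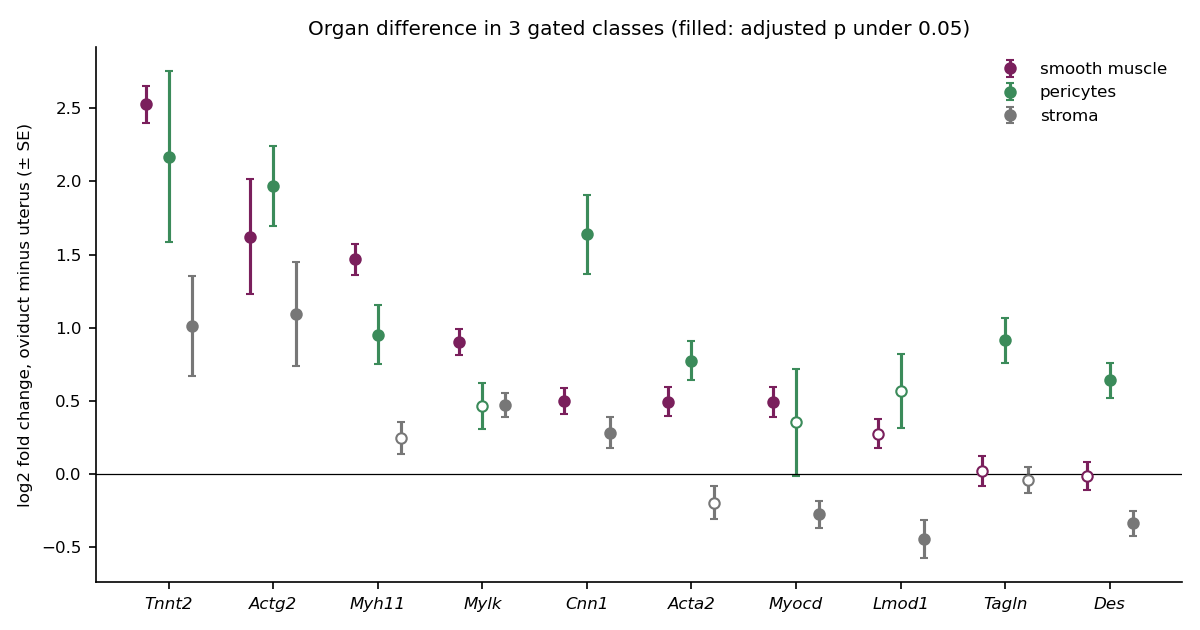
Difference between oviduct and uterus (log2, positive where the oviduct is higher) of each of the 10 genes in smooth muscle, pericytes and stroma, with bars of 1 SE and filled points where the adjusted p is under 0.05. In smooth muscle the values run from 2.53 for Tnnt2 to −0.01 for Des, while in pericytes Tagln is at 0.91 and Des at 0.64.

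Other measures moved with organ in the same cells. The genes of the gate summed to 4981 to 5092 CPM in oviduct muscle and 4210 to 4325 in uterine muscle, and the median score was likewise higher in the oviduct libraries. Other marker lists had sums that did not overlap between the organs, but such a sum did not always give the direction of most of its genes. Counts of list genes without overlap are given here and below with no share over all genes, as a description only. The pericyte sum was larger in the oviduct, at 136 to 146 CPM against 113 to 129.9, while 3 of its 10 genes were higher there without overlap and 5 in the uterus. The stroma sum was larger in uterine muscle, at 4575 to 4669 CPM against 4865 to 5148, with 5 genes higher in each organ. In the uterus this sum was above that of the stroma class itself, at 3328 to 3626 CPM. In the oviduct it was below that of the stroma class, at 8087 to 8285 CPM, so the muscle classes of the organs are not alike in this. The mesothelial sum, at 141 to 150.3 against 174 to 191, was larger in the uterus with 1 gene of 9, the other 8 being higher in the oviduct, and the epithelial sum, at 69.0 to 77.5 against 135 to 139, with 4 genes each way. Free RNA could supply 0.45% to 1.13% of the UMIs of the class. The part of the score, of these markers or of Foxl2 in the differences was not tested, except as follows. Restricting both organs to scores of 30 to 45 kept 6 genes past the threshold of edgeR's test, with Tnnt2 at 1.60, Myh11 at 1.16 and Acta2 at 0.29, and lost Cnn1 (0.21, adjusted p = 0.121). A gate at 45 lost Actg2 (0.82), Cnn1 (0.30) and Myocd (0.23). Of the 16 alternatives counted next, the gate on all 10 genes and the clusters select on the genes described, so passing there is no support. Myocd passed in 12 of 16 alternatives, and was also lost with the gate on all 10 genes (0.26), with that on the 9 others (0.27) and with clusters (0.22), where edgeR's adjusted p was 0.0784, 0.0722 and 0.0742. Tnnt2, Myh11, Mylk and Acta2 passed under each of the 16 alternatives run, and Actg2 was lost with DESeq2 (adjusted p = 0.339).

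Levels were also taken by bands of the score. At scores of 10 to 20 Acta2 was higher in the uterus, with 749 and 763 CPM against 855 and 1003, and at 20 to 30, just below the gate, it was nearly equal, with 2355, 2338, 2258 and 2294 CPM. At 30 to 45 it was 4576 and 4512 in the oviduct against 3590 and 3782, and at 60 and over 9761 and 9655 against 8107 and 8638. Both organs thus gained the actin with the score. The ratio of oviduct to uterus was 1.03 at 20 to 30, 1.23 at 30 to 45, 1.22 at 45 to 60 and 1.16 at 60 and over. Mylk overlapped at 20 to 30, with 381, 437, 425 and 372 CPM, and stood at 1682, 1824, 762 and 1020 at 60 and over, but it was also apart in the lowest band, under 10, with 169.6 and 178 against 73.9 and 66.6. Tagln was higher in the uterus at 30 to 45, with 2072 and 1778 CPM against 2384 and 2178, and overlapped in the bands above. Myh11 was already apart at 20 to 30, with 66.4 and 94.4 CPM against 46.2 and 43.9, and reached 970 and 1206 against 690 and 580. Tnnt2 was highest at the top of the score, with 265 and 294 CPM against 75.3 and 72.9 at 60 and over and 26.5 and 29.7 against 8.08 and 10.2 at 30 to 45. Des was higher in the uterus already in the lowest band, with 127 and 118 CPM in the oviduct against 174 and 161. The organs overlapped at 10 to 20, and at 20 to 30 Des was 144 and 141 against 147 and 148. Des was also higher in the uterus without overlap in each band from 30 upwards, with 169 and 137 against 187 and 178 at 30 to 45. It was 235 and 195 against 251 and 260 at 45 to 60, and reached 339, 349, 367 and 404 in the highest. That band held 222, 185, 44 and 54 cells, so the uterine values in it rest on few cells, and Actg2 there was 344 CPM in uterus replicate 2 against 58.4 in uterus replicate 1.

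**Figure D4:**
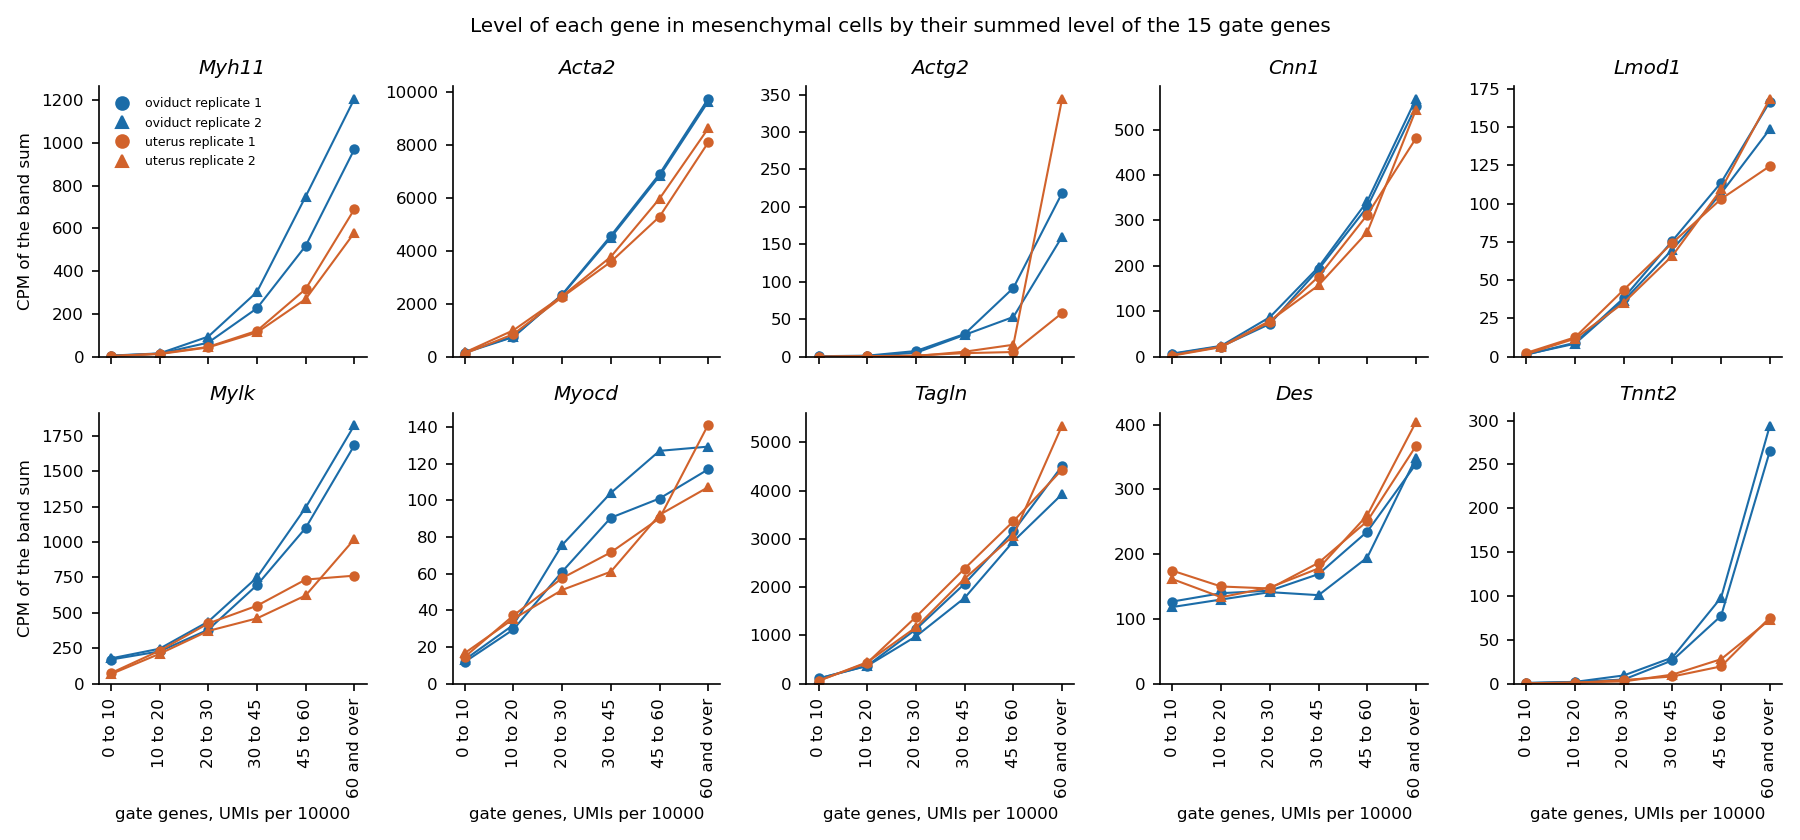
Level of the genes in CPM by band of the muscle score, in UMIs of the 15 gate genes per 10000, with 1 line per library, over smooth muscle, intermediate and stromal cells. The lines of the organs meet at 20 to 30 for Acta2 and Mylk and separate above it, while Myh11 and Tnnt2 are apart in every band from 20 upwards.

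A level summed over a class can come from more cells with the transcript or from more transcripts per cell. With every cell thinned to 5000 UMIs, Myh11 was seen in 61.7% and 66.3% of oviduct muscle cells and in 41.0% and 40.1% of uterine ones (unthinned 75.0%, 76.5%, 56.6% and 58.6%). Thinning left out 45, 48, 22 and 36 shallower cells. In blood endothelium, which should lack it, the thinned share was 0 to 4.72%, at a median depth of 14533 to 18687 UMIs per cell before thinning. Tnnt2 was seen in 22.4% and 24.6% against 5.16% and 7.58% (unthinned 34.5%, 35.5%, 12.8% and 16.8%), with at most 0.775% in endothelium. Actg2 was seen in 16.9% and 16.3% against 1.89% and 5.96% (unthinned 24.4%, 24.9%, 6.80% and 11.7%), with none in endothelium. Acta2 and Tagln, by comparison, were seen in 98.1% to 99.9% of the cells of each library. The share of Des was higher in the uterus, at 61.3% and 59.8% against 53.0% and 52.6% in the oviduct, while its summed level was not. Unthinned it was 78.9%, 74.9%, 87.1% and 85.9%. Thinned to 2000 UMIs, which leaves out no cell, it was 31.6%, 29.1%, 34.0% and 27.1%, and the organs overlapped.

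**Figure D5:**
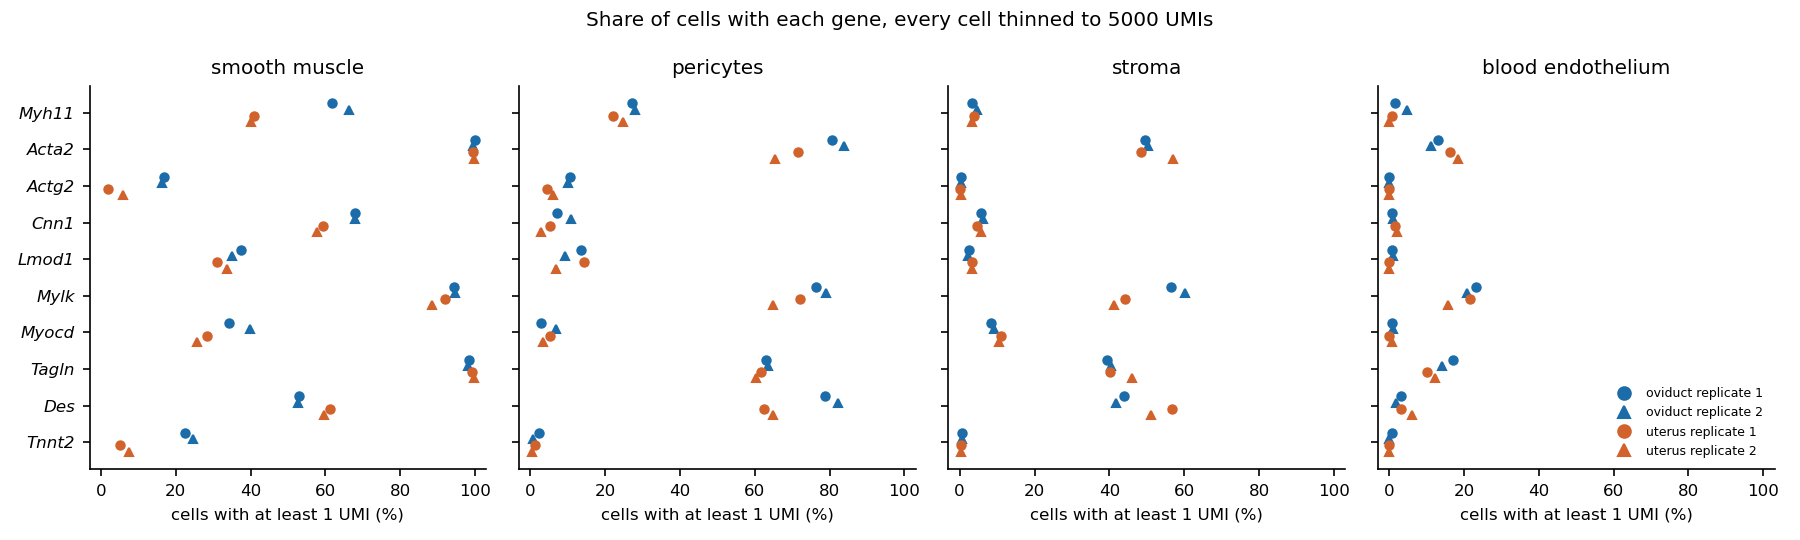
Percent of cells with at least 1 UMI of each gene after thinning every cell to 5000 UMIs, in smooth muscle, pericytes, stroma and, as background, blood endothelium, with 1 point per library. In smooth muscle oviduct libraries lie above uterus libraries for Myh11, Tnnt2, Actg2, Cnn1, Myocd, Mylk and Lmod1 and below them for Des and Tagln.

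The rarer genes were also counted separately in cells with and without a UMI of the myosin gene. Among oviduct muscle cells with a UMI of Myh11, 30.6% and 31.6% also had one of Tnnt2, against 9.06% and 10.8% of the cells without Myh11. In the uterus these shares were 8.82% and 11.7% against 2.62% and 4.82%. For Actg2 they were 23.0%, 21.0%, 3.36% and 10.8% with Myh11 and 7.02%, 7.06%, 0.875% and 2.71% without it. Of the 10 genes a median of 6, 6, 5 and 5 were seen per cell, and 16.4% and 17.9% of the oviduct cells had 8 or more, against 4.82% and 6.86% of the uterine cells. Across single cells of a library, which share their library and sampling depth, the closest pairs were Myh11 with Acta2 (mean Pearson r over the 4 libraries 0.43), Acta2 with Tagln (0.39) and Acta2 with Cnn1 (0.38). For the kinase, r of Mylk with Acta2 was 0.46 and 0.45 in the oviduct against 0.11 and 0.13 in the uterus, and r with Myh11 was 0.46 and 0.48 against 0.16 and 0.22, a difference that was not tested. Myocd and Tnnt2 were the least related pair, with 0.02.

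In pericytes 7 of the 10 genes were higher in the oviduct, against 4.18% of the 10889 genes tested, with 1.85% higher in the uterus and 6.02% in either direction (edgeR's quasi-likelihood test, Benjamini-Hochberg adjustment). The median over the 10 was 0.84 (log2), close to 0 over all genes tested. Acta2 was at 2387 and 2055 CPM in the oviduct against 1403 and 1127 in the uterus, a difference of 0.78 ± 0.14 (edgeR adjusted p = 0.00129). Tagln, which did not pass in gated muscle, was at 1302 and 1220 CPM against 798 and 510, a difference of 0.91 ± 0.15 (edgeR adjusted p = 9.40e-04). Des likewise was at 358 and 390 against 221 and 244, a difference of 0.64 ± 0.12 (edgeR adjusted p = 0.00199). Actg2 differed by 1.97 ± 0.27, Cnn1 by 1.64 ± 0.27 and Myh11 by 0.95 ± 0.20, all with the concentration in few cells given above. Leaving out the 10 richest cells, Acta2 stood at 1459 and 1222 against 735 and 713 CPM and Des at 300.3 and 306 against 181 and 205, still without overlap. Lmod1 (0.57 ± 0.25), Mylk (0.47 ± 0.16) and Myocd (0.35 ± 0.37) did not pass, with edgeR adjusted p = 0.248, 0.0947 and 0.708. Mylk passed in 4 of 11 alternatives, among them the replicate block given at the end. Tnnt2 passed at 2.17 ± 0.58 on 35, 10, 8 and 2 UMIs.

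Sums of other lists were also larger in oviduct pericytes without overlap. The gate genes of smooth muscle, which the pericyte gate does not use, summed to 3584 to 3694 CPM in the oviduct against 2297 to 2624 in the uterus, with 7 of 15 genes higher in the oviduct without overlap and 1 in the uterus. Pericyte markers summed to 3123 to 3702 CPM against 2778 to 2892 (5 genes against 1), blood endothelial markers to 144 to 156 against 92.8 to 113 (2 against 0) and stroma markers to 2732 to 2741 against 1979 to 2516, where 4 genes were higher in the oviduct but 5 in the uterus. These gene counts again have no share over all genes beside them, and the part of these lists in the result was not tested. Tnnt2 was lost without oviduct replicate 1 (1.26, adjusted p = 0.602) and without uterus replicate 2 (1.43, adjusted p = 0.136), and without uterus replicate 1 all 10 genes passed, with Cnn1 at 2.51 and Lmod1 at 1.22 (edgeR). Without oviduct replicate 1 Actg2 was 1.29. DESeq2 left 3 of the 7, namely Acta2, Actg2 and Des.

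In stroma the organs differed at 46.5% of the 15074 genes tested, 24.6% toward the oviduct and 21.8% toward the uterus, so the 7 of 10 genes that passed there are read against a high background. Stromal cells too lay in different clusters in each organ: the 2 largest held 1213, 770, 5 and 12 cells and 13, 15, 1030 and 917. The 10 stroma markers summed to 8087 to 8285 CPM in oviduct stroma against 3328 to 3626 in uterine stroma, with 7 genes higher in the oviduct without overlap and 2 in the uterus. Mesothelial markers summed to 226 to 238 against 206 to 222 (8 genes against 1). Pericyte markers summed to 74.8 to 83.9 against 67.8 to 68.5 (3 genes each way). No list summed higher in uterine stroma without overlap, and the part of these lists in the results was not tested. The gene counts of these lists too have no share over all genes beside them and are a description only. The kinase Mylk was the firmest, with 199 and 215 CPM against 147 and 138, a log2 difference of 0.47 ± 0.08 (edgeR adjusted p = 4.44e-04). Cnn1 (0.28 ± 0.11), Actg2 (1.09 ± 0.35) and Tnnt2 (1.01 ± 0.34) were also higher in the oviduct. Des (−0.34 ± 0.09), Lmod1 (−0.44 ± 0.13) and Myocd (−0.27 ± 0.09) were higher in the uterus, and of these 3 only Myocd went the other way in muscle with a passed test. Acta2 (−0.19 ± 0.11), Tagln (−0.04 ± 0.09) and Myh11 (0.25 ± 0.11) did not pass edgeR's test, with adjusted p = 0.177, 0.739 and 0.0786.

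Free RNA could supply 10.4% to 59.3% of the stromal UMIs of Actg2 and 7.05% to 37.5% of those of Tnnt2, and both were lost when it was subtracted (0.98 and 0.81, edgeR adjusted p = 0.110 and 0.0816). Its estimate, which rests on haemoglobin genes, was 2.36%, 2.75%, 0.98% and 6.98% of all stromal UMIs. Of the 7, Mylk alone passed under all alternatives, and DESeq2 left Mylk and Des. Cnn1 did not pass with the gate on all 10 genes (0.13, edgeR adjusted p = 0.449), nor Lmod1 with that on the 9 others (edgeR adjusted p = 0.291). The gate on all 10 genes and the clusters select on the genes described, so passing with them is a description only. With clusters in place of the gate all 10 genes passed, 9 toward the oviduct. The clusters named stroma include cluster 18, whose leading genes include Myh11 and Tnnt2. It held 243, 177, 2 and 0 cells, and 34.4% of them were gated as smooth muscle. The part of that cluster in these values was not tested. Lmod1 (0.67) and Myocd (0.36) turned to the oviduct there, Acta2 (0.62) and Tagln (0.48) turned and passed, Myh11 was 1.75 and Tnnt2 2.57, and Des (−0.29) stayed toward the uterus. Acta2 and Tagln each passed in 1 other setting toward the uterus, Acta2 at −0.38 without uterus replicate 1 and Tagln at −0.32 with the gate on the 9 other genes, and Myh11 in 1 other toward the oviduct, at 0.29 with doublets kept. Leaving out 1 library lost Actg2 and Myocd without oviduct replicate 1, then Des, Tnnt2 and Cnn1 without oviduct replicate 2, then Lmod1, Tnnt2, Actg2 and Cnn1 without uterus replicate 1, and Actg2 and Myocd without uterus replicate 2.

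Whether the organ difference itself differed between smooth muscle and pericytes was tested as an interaction, in which 8.11% of the 12886 genes tested passed, 3.72% toward smooth muscle and 4.39% toward pericytes, and 6 of the 10 did (edgeR's quasi-likelihood test with library as a block). The muscle class was bounded by the score and the pericyte class was not, and the part of this in the interaction was not tested. Among the alternatives counted below, the gate on all 10 genes and the clusters select on the genes described, so passing there is no support. Tagln (−0.92 ± 0.10, adjusted p = 8.15e-09), Des (−0.65 ± 0.10, adjusted p = 1.10e-05) and Cnn1 (−1.15 ± 0.22, adjusted p = 2.46e-04) had an excess in the oviduct that was larger in pericytes. Acta2 had it to a lesser degree (−0.28 ± 0.09, adjusted p = 0.0340). The myosin pair went the other way, with Myh11 at 0.47 ± 0.15 (edgeR adjusted p = 0.0359) and Mylk at 0.41 ± 0.11 (edgeR adjusted p = 0.00905). Tagln and Des passed in each of the 13 alternatives, Cnn1 in 10, Acta2 in 9, Mylk in 8 and Myh11 in 7. The myosin pair did not pass with the gate at 45 (Myh11 0.13, Mylk 0.46), the gate on all 10 genes (0.23 and 0.32), that on the 9 others (0.24 and 0.33) or DESeq2 (0.41 and 0.39), and Myh11 was also lost with doublets kept (0.24). Without uterus replicate 1 the pair was lost as well (−0.03 and 0.15) and Cnn1 was −1.99, and without uterus replicate 2 Cnn1 (−0.58) and Acta2 (−0.06) were lost. DESeq2 lost both of these too and left Tagln and Des, Cnn1 was also lost with clusters (−0.54), and Acta2 with stricter cell filters (−0.26) and the gate on the 9 others (−0.30). The other 4 genes did not pass, though Actg2 passed in opposite directions in 3 alternatives, at −1.22 without uterus replicate 1, 1.39 without uterus replicate 2 and 1.54 with clusters. Lmod1 passed at −0.96 without uterus replicate 1 and Tnnt2 at 2.74 with clusters.

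The rest of the muscle programme was read from 5 lists holding 100 genes in all, 85 of which could be tested in smooth muscle. Of these, 37 had more RNA in oviduct muscle and 12 in uterine muscle, by the same edgeR test as above, and 13 of the 100 are gate genes. The background of the counts of each list is 14.2% of all genes tested toward the oviduct and 12.1% toward the uterus. Among thin filament, light chain and linker genes 14 of 31 had more RNA in oviduct muscle and 3 in uterine muscle, with a median of 0.19 (log2) against −0.01 over all genes tested. The list holds 10 of the gate genes, which define the class and summed higher in the oviduct. Csrp2, a LIM protein of muscle, was at 831 and 853 CPM against 219.9 and 229 (1.90 ± 0.09), and Fhl1, another LIM protein, at 122 and 124 against 61.2 and 69.9 (0.91 ± 0.10). Palladin, an actin cross-linker encoded by Palld, went the other way with 136 and 140 against 353 and 332 (−1.32 ± 0.09), as did Fhl2 (−0.51 ± 0.14), which was lost without uterus replicate 2 (−0.22, edgeR adjusted p = 0.266).

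Among 14 genes that control myosin phosphorylation 8 had more RNA in oviduct muscle and 3 in uterine muscle, with a median of 0.32. Pde5a, which degrades cyclic GMP, was at 39.3 and 44.6 CPM against 22.2 and 15.3 (1.16 ± 0.14), and Ppp1r14a, an inhibitor of the myosin phosphatase and one of the gate genes, was at 81.7 and 77.5 against 46.6 and 52.7 (0.68 ± 0.11). Both subunits of the guanylate cyclase that makes cyclic GMP in response to nitric oxide were higher in the uterus, Gucy1a1 with 9.73 and 9.67 against 27.6 and 26.6 CPM (−1.48 ± 0.13) and Gucy1b1 with 4.28 and 3.56 against 10.3 and 7.75 (−1.19 ± 0.21). With clusters in place of the gate both turned to the oviduct, Gucy1a1 at 1.41 and Gucy1b1 at 0.58, and Gucy1b1 is itself a marker of the pericyte gate.

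Channels, pumps and receptors had 8 of 16 with more RNA in oviduct muscle and 3 with more in uterine muscle, with a median of 0.35, and 2 of the list are gate genes. Ptgfr, the receptor of prostaglandin F, was at 22.6 and 23.2 CPM against 5.52 and 5.97 (1.99 ± 0.15), and the calcium release channel Ryr2 at 7.77 and 8.90 against 2.48 and 2.41 (1.76 ± 0.22). Chrm3, a muscarinic acetylcholine receptor, was higher in the uterus with 2.69 and 3.73 against 25.7 and 21.3 CPM (−2.88 ± 0.19), as was the gap junction gene Gja1 with 25.6 and 32.9 against 114 and 102 (−1.89 ± 0.12). All 4 passed edgeR's test, with adjusted p-values from 4.98e-08 for Gja1 to 4.56e-05 for Ryr2.

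Of 16 regulators tested 5 had more RNA in oviduct muscle and 2 in uterine muscle, the latter a share near that of all genes, with a median of 0.05. Klf2, a zinc finger factor, differed by 1.40 ± 0.16 and the mesenchymal homeobox gene Prrx1 by 0.82 ± 0.09, while Hand2, a basic helix-loop-helix factor of the uterine mesenchyme, was at 90.9 and 81.7 CPM against 146 and 149 (−0.78 ± 0.10). Srf, the partner of myocardin, was at 42.6, 49.3, 39.9 and 45.7 CPM and did not pass (0.10 ± 0.12, edgeR adjusted p = 0.595). Of the striated muscle isoforms 8 could be tested, 2 of them with more RNA in oviduct muscle and 1 in uterine muscle, with a median of 0.14. Tnnt1, the troponin T of slow skeletal muscle, was at 58.1 and 46.1 CPM against 118 and 114 (−1.15 ± 0.12), the opposite direction to Tnnt2 in the same cells. Tnnt3, the fast skeletal form, was at 7.55 and 6.44 CPM against 3.04 and 2.72 (1.28 ± 0.23). Myl4 (0.64 ± 0.22) lay just inside the threshold with an edgeR adjusted p of 0.0463.

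The genes whose levels most resembled those of the 10 were ranked by Pearson correlation of log2(CPM + 1) with the mean of the 10, over 32 sums of 8 classes in 4 libraries and 5853 genes. The 8 closest that are not among the 10 were Ppp1r12b (r = 0.94), Tpm2 (0.94), Jph2 (0.94), Myl9 (0.93), Carmn (0.92), Cap2 (0.90), Fat3 (0.90) and Flna (0.88). Ppp1r12b encodes a targeting subunit of the myosin phosphatase, and it stood at 109.6 CPM in smooth muscle, 28.8 in pericytes, 16.7 in stroma and 7.09 in blood endothelium. Jph2, which ties the cell membrane to calcium stores, stood at 24.1, 16.7, 1.93 and 0.213 CPM in the same order. Tpm2 and Myl9 belong to the gate, and the sums share libraries and depth.

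Smooth muscle made up 15.3% and 16.7% of the cells sorted from the oviduct against 16.99% and 15.1% from the uterus, a difference of −0.05 percentage points. With 2 libraries against 2 the exact permutation test (2-sided) cannot give a p below 0.33, and it gave 1. With a gate of 45 the shares were 7.49%, 7.47%, 5.15% and 4.35%, and by clusters they were 8.88% and 8.27% against 15.2% and 13.1%, so the share and its direction depend on where the class is bounded.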

How the data were processed

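The authors deposited UMI counts per gene and barcode for each library, per the file headers as matrices of called cells (Cell Ranger 6.0.1) and of all barcodes (Cell Ranger 4); the submitters' processing notes name mm10 and Seurat 4.2.3, while strand setting and annotation are stated nowhere in these sources. Introns and overlapping antisense genes (at Tagln, Mylk and Des) could therefore add reads that cannot be told apart. Cells were kept with at least 500 genes and at most 15% mitochondrial UMIs, and probable doublets, 0.8% per 1000 barcodes by Scrublet's score, were removed (scanpy 1.11.5, Python 3.11.15).

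Classes came from marker lists that hold none of the 10 genes. Smooth muscle needed 30 UMIs per 10000 of 15 genes, stroma under 20 and at least 2 of its markers, pericytes, epithelium, mesothelium and endothelium at least 5 of theirs, and myeloid cells at least 4. A pericyte call overrode the muscle score, and 337 cells of more than 1 class were set aside, 168 and 139 from the oviduct but 11 and 19 from the uterus. These thresholds were set on the score distribution. The members and lists were chosen with earlier results of these data known.

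Counts were summed per class and library and tested with edgeR 4.0.16 (R 4.3.3; TMM, filterByExpr, quasi-likelihood F-test, 2-sided, Benjamini-Hochberg over all genes tested, threshold 0.05). Each group has 2 libraries made from separate pools, so p-values rest on little replication. Both organs came from the same neonates, per the labels, but that libraries with the same number share a pool is read from their numbering; replicate deviations correlated across organs with r = 0.17 in smooth muscle, 0.05 in pericytes and 0.19 in stroma. Named genes were all 10 members, the 2 largest called changes per direction in each of the 5 programme lists at a mean of 5 CPM or more, and the 8 genes of most similar level at 20 CPM or more; Srf, Tnnt3 and Foxl2 were added after their values were seen. Alternatives were another gate on the members, Leiden clusters (leidenalg 0.10.2), a threshold of 45, stricter cell filters (1000 genes, 10% mitochondrial), doublets kept, DESeq2 1.42.0, no filter on low counts, free RNA estimated from barcodes of at most 100 UMIs and subtracted, each library left out, and the pool as a block; a threshold of 20 and scores of 30 to 45 were added after seeing the data. The scripts were tested on simulated data. Of the 31053 gene IDs, 31011 were found in GENCODE M21.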

Additional observations from a re-analysis of the deposited data

Results flagged for a closer look

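The difference between the organs was itself different in smooth muscle and pericytes for 6 of the 10 genes, by the interaction term of edgeR's quasi-likelihood test. The value is the organ difference in smooth muscle minus that in pericytes (log2): −1.15 for Cnn1, −0.92 for Tagln, −0.65 for Des, −0.28 for Acta2, 0.47 for Myh11 and 0.41 for Mylk. Of these, Tagln and Des passed under all 13 alternatives run, Cnn1 passed in 10 of them, Acta2 in 9, Mylk in 8 and Myh11 in 7. Among the 13, the gate on all 10 genes and the clusters select on the genes described. The 10 pericytes of a library richest in a gene held up to 84.8% of its UMIs for Cnn1 and 55.5% to 66.5% for Myh11. For Tagln they held 37.5% to 52.2%, for Acta2 36.8% to 47.6%, for Mylk 27.6% to 39.7% and for Des 16.1% to 21.6%. The part of those cells in the result was not tested.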

How the results depend on the processing

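Genes called per comparison moved by over 1.5 times as follows. The organ difference in smooth muscle, 3463 genes, gave 1851 with the gate at 45 and 2205 with DESeq2. That in pericytes, 656 genes, gave 273 with DESeq2 and 437 to 748 with 1 library left out. Smooth muscle against stroma, 1572 genes, gave 3802 with clusters and 783 to 1017 with 1 library left out. The interaction, 1045 genes, gave 250 with DESeq2 and 596 to 907 with 1 library left out. The share of cells gated as smooth muscle turned from −0.05 points to 1.27 with the gate on the members, 2.73 with the gate at 45 and 0.086 with doublets kept, and ran from −0.997 to 0.90 with 1 library left out.

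Directions turned mostly where the estimate was near 0. Clusters were drawn with the 10 genes included. Tagln in smooth muscle was 0.49 and passed with them, −0.054 with the gate at 45, −0.069 with the gate on the members, −0.043 with that on the 9 others, −0.25 at scores of 30 to 45 and −0.11 to 0.15 with 1 library left out. Des there was 0.32 and passed with clusters, 0.0050 with no filter, 0.0053 with the looser gate and −0.13 to 0.10 with 1 library left out. Gucy1a1 was 1.41 and Gucy1b1 0.58 with clusters. Myocd in pericytes was −0.10 with clusters and −0.21 to 1.18 with 1 library left out. In stroma clusters gave Acta2 0.62, Lmod1 0.67, Myocd 0.36 and Tagln 0.48. Stromal Tagln was 0.026 with stricter cell filters and 0.0013 with free RNA subtracted, and with 1 library left out it ran from −0.12 to 0.040 and Acta2 from −0.38 to 0.0093. Against pericytes Actg2 was 1.35 and passed with the gate at 45, −0.56 with clusters and −0.39 with the looser gate, and Des 0.073 with the gate at 45. In the interaction Actg2 was 1.54 with clusters and 0.13 with DESeq2, Myocd −0.12 with the gate at 45, −0.14 with the gate on the members and −0.14 with that on the 9 others, and Tnnt2 −0.18 with doublets kept. With 1 library left out the interaction ran from −0.028 to 0.89 for Myh11, −1.22 to 1.39 for Actg2, −0.96 to 0.22 for Lmod1, −0.61 to 0.64 for Myocd and −1.25 to 1.29 for Tnnt2. Of 20 alternative differences in the share of cells with a gene, 14 moved in size, 5 stayed the same and 1 turned. The one that turned was Acta2, at −0.21 points unthinned. Cause was not tested for any of these.

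With the replicate number, taken as the pool of neonates, as a replicate block 3813 genes passed in smooth muscle, 836 in pericytes and 7157 in stroma. The block brought Mylk past the threshold in pericytes (0.49, edgeR adjusted p = 0.0248) and changed no other call of the 10. All 140 alternative values of the 10 genes against stroma kept both their direction and their call, and 137 of 160 did for the organs in smooth muscle. The count against stroma is no support, because the classes were made with genes expressed together with the 10. In both counts some alternatives, the gate on the members and the clusters, use the 10 genes themselves. Gates on muscle genes leave the pericytes as they are and so gave no separate value there. Tnnt2 in pericytes rests on 2 to 35 UMIs per library.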
